A study of Mus musculus with 2 samples.

Results

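The Tlx, Lmx1b, Prrxl1, Pou4f, Phox2a and Prdm8 genes encode transcription factors and were taken as a group named for excitatory dorsal spinal neurons. Prdm8 was also found in clusters of inhibitory type, as given below. 8 genes were taken by symbol from the feature lists of both count matrices, namely Tlx3, Tlx1, Lmx1b, Prrxl1, Pou4f1, Pou4f2, Phox2a and Prdm8, out of 31053 genes measured. Each symbol matched 1 gene. The rule names symbols and uses no measured value. Lbx1, Isl1 and Slc17a6 were added as partner genes for co-detection.

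The cells were differentiated from MM13, a line of mouse embryonic stem cells, for 9 days, under RA+BMP4 or under RA alone. RA was thus present in both conditions and BMP4, a bone morphogenetic protein, in 1 of them. Single cells were captured by droplet, with 3' ends counted by unique molecular identifier (UMI), and each condition had 1 library. The spread between cultures could therefore not be measured, no test between conditions was possible, and all intervals below are 95% intervals that cover counting error only. The RA+BMP4 library held 115268932 UMIs in 13121 barcodes, of which 8337 were kept with a median of 10463 UMIs, and the RA library held 122110565 UMIs in 9704 barcodes, of which 5896 were kept with a median of 14191.5 UMIs. Between the libraries, 43 barcodes were shared, 21 of them among the kept cells. Neuron-like and newborn neuron-like clusters made up 41.6% of kept RA+BMP4 cells (3465 cells) and 54.5% of kept RA cells (3214 cells), and all 10 neuron markers were found in the neuron-like cells of both. The remaining cells fell mostly into roof plate-like, progenitor-like, mesenchyme-like and pluripotent-like clusters.

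In the dorsal spinal cord, neurons leave the cycle in classes that are told apart by their transcription factors, and those factors go on to set the transmitter. Tlx3 and Tlx1 are homeodomain factors that favour the glutamatergic fate over the GABAergic fate, which Pax2 promotes. In mouse, dI5 neurons express Lbx1, Tlx3 and Lmx1b, whereas dI3 neurons express Isl1 and Tlx3 without Lbx1. Prrxl1, also called Drg11, is a paired-type homeodomain factor of dorsal horn and sensory neurons. Pou4f1 and Pou4f2, also called Brn3a and Brn3b, are POU homeodomain factors of sensory, retinal and dorsal spinal neurons. Phox2a is a homeodomain factor of noradrenergic neurons and of spinal projection neurons, and Prdm8 belongs to the PRDM family of chromatin regulators. Slc17a6 encodes the vesicular glutamate transporter VGLUT2.

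On GRCm38, Tlx3 lies at chr11:33200752-33203589 (minus strand), Tlx1 at chr19:45150680-45156943 (plus), Lmx1b at chr2:33560965-33640511 (minus) and Prrxl1 at chr14:32599407-32649246 (plus). Pou4f1 lies at chr14:104461676-104467999 (minus), Pou4f2 at chr8:78433010-78436645 (minus), Phox2a at chr7:101818313-101822726 (plus) and Prdm8 at chr5:98167198-98188991 (plus). All are protein-coding. Tlx1 overlaps Tlx1os on the other strand, Lmx1b overlaps Gm38011, Phox2a overlaps Inppl1 and Prdm8 overlaps A730035I17Rik, and whether strand was used in counting is not given in the sources used here, so UMIs of these 4 genes may include some of their partners.

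In the order of all neuron-like and newborn neuron-like cells given below, the Tlx pair was highest early. For Tlx3 in RA+BMP4 this direction turned within clusters 1 and 3 alone. Pou4f2 was called higher late in RA and Pou4f1 was not, and neither was called in RA+BMP4. For both pairs, the bases before the start are shown. They come from RefSeq on GRCm38.p6, are read 5′ to 3′ on the gene's strand, and all 8 genes had a promoter entry. Capitals mark a match to an E-box, CAGCTG or CAGATG, or to the homeodomain motif TAATTA, searched on both strands. In the order listed, the windows are chr11:33203590-33203838, chr19:45150465-45150679, chr14:104468000-104468249 and chr8:78436648-78436897.
Tlx3: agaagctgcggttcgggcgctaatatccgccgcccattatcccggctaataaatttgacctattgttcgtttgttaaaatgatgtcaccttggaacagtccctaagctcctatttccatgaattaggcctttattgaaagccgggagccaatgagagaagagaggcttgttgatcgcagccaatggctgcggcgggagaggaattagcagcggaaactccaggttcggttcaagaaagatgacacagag
Tlx1: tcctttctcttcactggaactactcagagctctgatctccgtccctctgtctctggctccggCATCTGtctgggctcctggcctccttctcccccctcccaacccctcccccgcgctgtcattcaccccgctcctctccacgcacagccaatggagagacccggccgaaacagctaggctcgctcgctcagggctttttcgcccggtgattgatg
Pou4f1: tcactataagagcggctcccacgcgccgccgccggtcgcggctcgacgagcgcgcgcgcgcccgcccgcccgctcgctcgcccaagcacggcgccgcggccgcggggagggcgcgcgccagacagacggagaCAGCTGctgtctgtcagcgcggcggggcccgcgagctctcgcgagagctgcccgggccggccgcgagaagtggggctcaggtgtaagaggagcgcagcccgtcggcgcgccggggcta
Pou4f2: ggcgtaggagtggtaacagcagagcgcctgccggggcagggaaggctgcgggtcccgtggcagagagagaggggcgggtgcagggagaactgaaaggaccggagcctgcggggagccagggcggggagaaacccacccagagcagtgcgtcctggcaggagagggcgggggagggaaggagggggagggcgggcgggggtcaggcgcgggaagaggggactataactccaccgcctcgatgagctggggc

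The Tlx1 window held the reverse complement of CAGATG, 188 bases before the RefSeq start. The Pou4f1 window held CAGCTG, 118 bases before the start. No motif of the 3 was found in the letters of the Tlx3 and Pou4f2 windows. Over the 250 bases before the start, CAGCTG was present in 13.0% of 32851 RefSeq promoters, CAGATG in 14.4% and TAATTA in 4.84%. Among all 8 genes, Prdm8 was the other one with a match (CAGCTG, 217 bases before the start). GC content was 48.6% in the Tlx3 window, 61.9% in the Tlx1 window, 78.0% in the Pou4f1 window and 70.8% in the Pou4f2 window. These matches describe letters and say nothing of binding.

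All 8 genes had a lower level over the whole RA+BMP4 library than over the whole RA library. The share of all genes that were lower by any amount is not given here, so this shared direction has no background beside it. Shares over all genes are given below for differences of at least 2-fold. Levels are UMIs divided by all UMIs of the cells named, on the counts-per-million scale (CPM). Tlx3 had 29.2 CPM (28.2 to 30.3, 2968 UMIs) in RA+BMP4 and 50.9 CPM (49.6 to 52.3, 5549 UMIs) in RA, a ratio of 0.573. Tlx1, its paralog, had 0.630 CPM (64 UMIs) in RA+BMP4 and 5.59 CPM (609 UMIs) in RA, a ratio of 0.113 (0.0857 to 0.146). Both members of the pair were lower in the RA+BMP4 library, by different factors.

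Lmx1b, a LIM homeodomain factor, had 2.48 CPM (2.18 to 2.81) in RA+BMP4 and 10.7 CPM (10.1 to 11.4) in RA. Prrxl1 had 2.78 CPM (2.47 to 3.13) in RA+BMP4 and 10.7 CPM (10.1 to 11.4) in RA. The ratio was 0.231 for Lmx1b and 0.260 for Prrxl1. Pou4f1 had 37.4 CPM in RA+BMP4 and 62.2 CPM in RA, and Pou4f2 had 6.08 CPM in RA+BMP4 and 7.38 CPM in RA. Prdm8 had 8.16 CPM in RA+BMP4 and 11.6 CPM in RA. Phox2a had 68 UMIs in RA+BMP4 and 240 UMIs in RA, a level of 0.669 CPM and 2.20 CPM.

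A size rule called a gene different when it reached 5 CPM in 1 library and differed at least 2-fold. The level was reached by 7 of the 8 genes, all but Phox2a, and 3 of those 7 were called lower in RA+BMP4: Tlx1, Lmx1b and Prrxl1. Of 11028 genes that reached the level, 1.42% were called lower and 1.5% higher. The partners went different ways: Lbx1 had 5.77 CPM in RA+BMP4 and 26.6 CPM in RA, Isl1 15.2 and 2.39 CPM, and Slc17a6 38.9 and 19.4 CPM. In such sums, fewer cells of a type and less RNA per cell cannot be told apart, so the levels were next taken within classes of cells.

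**Figure D1:**
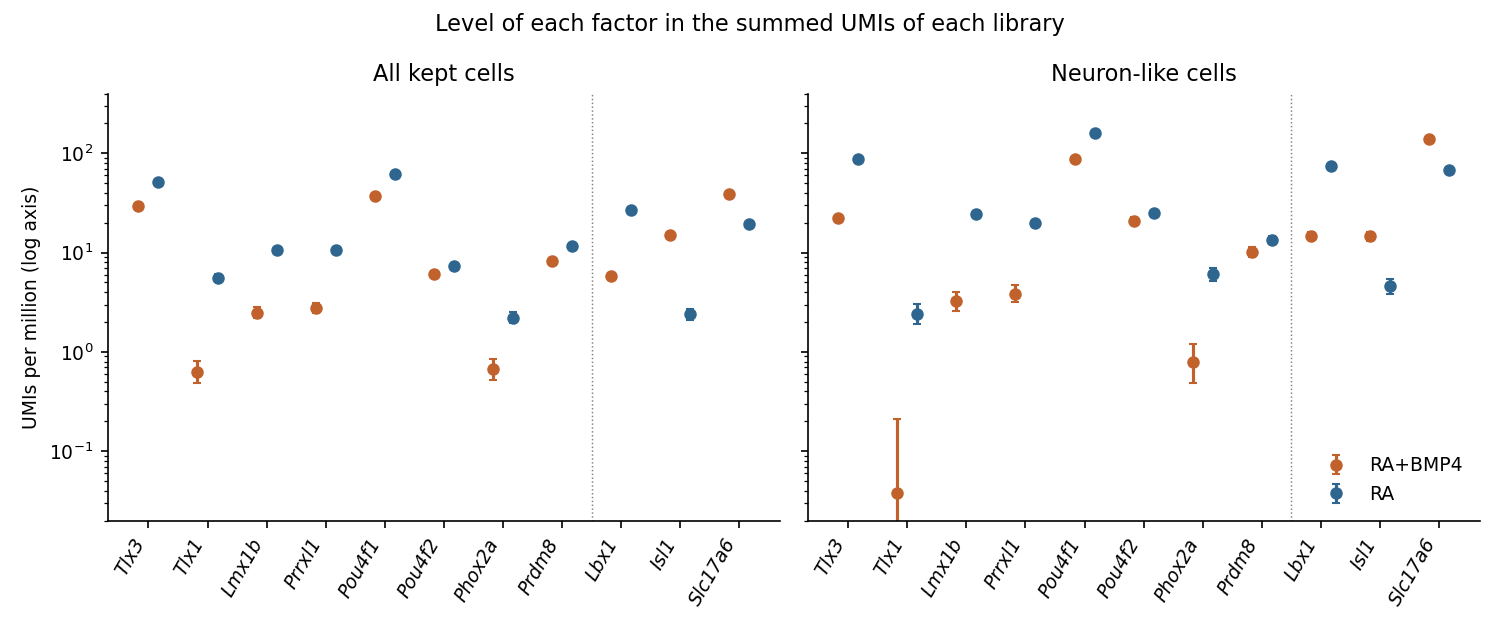
Level of each gene in CPM on a log axis, over all kept cells (left) and within neuron-like cells (right), in the RA+BMP4 library and the RA library. Points are sums over cells of 1 library each and bars are 95% Poisson intervals. In neuron-like cells the gap between libraries was wide for Tlx3 (22.2 and 87.9 CPM) and narrow for Pou4f2 (20.9 and 24.8 CPM).

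Within neuron-like cells, 2753 in RA+BMP4 and 2279 in RA, 4 of the 8 genes were called lower under RA+BMP4, and Pou4f1, Pou4f2 and Prdm8 were lower by less than 2-fold. Tlx3 had 22.2 CPM (20.4 to 24.0) in RA+BMP4 and 87.9 CPM (84.6 to 91.4) in RA, a ratio of 0.252. Lmx1b had 3.23 CPM in RA+BMP4 and 24.4 CPM in RA, Prrxl1 had 3.87 and 19.7 CPM, and Phox2a had 0.789 and 6.02 CPM. These 4 genes were called lower, with ratios between 0.131 and 0.252. Tlx1 had 1 UMI in RA+BMP4 and 72 UMIs in RA and was below the level floor in both.

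Pou4f1 had 87.1 CPM (83.6 to 90.7) in RA+BMP4 and 160 CPM (155 to 164) in RA, a ratio of 0.545. Pou4f2 had 20.9 CPM (19.2 to 22.7) in RA+BMP4 and 24.8 CPM (23.1 to 26.7) in RA, a ratio of 0.840. Prdm8 had 10.2 CPM in RA+BMP4 and 13.4 CPM in RA, a ratio of 0.762. The intervals of the libraries were far apart for Pou4f1 and closer for the other genes, and none of these 3 met the 2-fold rule. Among 10310 genes in neuron-like cells, 0.912% were called lower and 2.41% higher. The neuron-like class was not made of the same clusters in both libraries: in RA+BMP4 most of it lay in the dI1-like clusters 2 and 11 (1510 cells) and the dI2-like cluster 7 (621 cells), and in RA in clusters 1 (950 cells), 10 (447 cells) and 8 (450 cells).

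In newborn neuron-like cells, 712 in RA+BMP4 and 935 in RA, Tlx3 had 111 CPM (103 to 119) in RA+BMP4 and 195 CPM (187 to 203) in RA. Tlx1 had 5.43 CPM in RA+BMP4 and 40.3 CPM in RA. Lmx1b had 5.83 CPM in RA+BMP4 and 27.2 CPM in RA, and Prrxl1 had 9.53 and 43.9 CPM. Prdm8 was at nearly the same level, 42.5 CPM in RA+BMP4 and 44.9 CPM in RA, with overlapping intervals (38.0 to 47.4 and 41.2 to 48.9). Pou4f2 was low in both but higher in RA+BMP4, at 3.18 CPM (2.04 to 4.73, 24 UMIs) against 1.01 CPM (0.521 to 1.76, 12 UMIs) in RA. Both levels lay below the 5 CPM of the size rule.

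The share of cells in which a gene was found, after thinning every cell to 5000 UMIs, followed the same lines. Over neuron-like and newborn neuron-like cells together, Tlx3 was found in 9.46% of 3310 RA+BMP4 cells and 25.6% of 3185 RA cells, or 13.3% and 35.7% before thinning. Lmx1b was found in 1.57% of RA+BMP4 and 10.0% of RA cells, Prrxl1 in 2.02% and 9.95%, and Tlx1 in 0.453% and 4.71%. Pou4f1 was found in 25% of RA+BMP4 and 33.5% of RA cells, Prdm8 in 7.70% and 9.64%, and Pou4f2 in 6.59% and 6.56%. In mesenchyme-like cells, taken as the background of free RNA, the shares of the 8 genes were 0.110% to 2.09% in RA+BMP4 and 0 to 1.17% in RA. The median depth before thinning was 9639 UMIs in RA+BMP4 and 12345 UMIs in RA in the neuron lineage, against 15880 and 25367 UMIs in the mesenchyme-like cells. Lmx1b in RA+BMP4 was found in 1.57% (1.18 to 2.06) of lineage cells and in 2.09% (1.27 to 3.25) of mesenchyme-like cells, the highest of these background shares. Lmx1b is also known from limb mesenchyme, and whether its UMIs in the mesenchyme-like cells are their own was not tested. The lineage cells with Lmx1b were not spread evenly: 30 of the 52 in RA+BMP4 lay in cluster 1 and 19 in cluster 3, and its level was 59.8 CPM in cluster 1 against 3.48 CPM in mesenchyme-like cells. Phox2a was found in 0.0906% of lineage cells in RA+BMP4, against 0.441% of mesenchyme-like cells. In RA it was found in 0.534% of lineage cells and 0% of mesenchyme-like cells, with 6.02 CPM (5.17 to 6.97) in neuron-like cells and 1 UMI in mesenchyme-like cells.

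Phox2a rested on few cells. In RA its 240 UMIs lay in 79 cells, the 10 highest cells held 64.6% of them and the highest cell 42 UMIs. In RA+BMP4 its 68 UMIs lay in 48 cells, and the 10 highest held 44.1%. Those 10 cells were in clusters 1 and 10 in RA, both neuron-like, and in 7 clusters in RA+BMP4. A marker of noradrenergic neurons was at 0 beside it: Dbh, the enzyme that makes noradrenaline, had no UMI in neuron-like cells of either library.

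**Figure D2:**
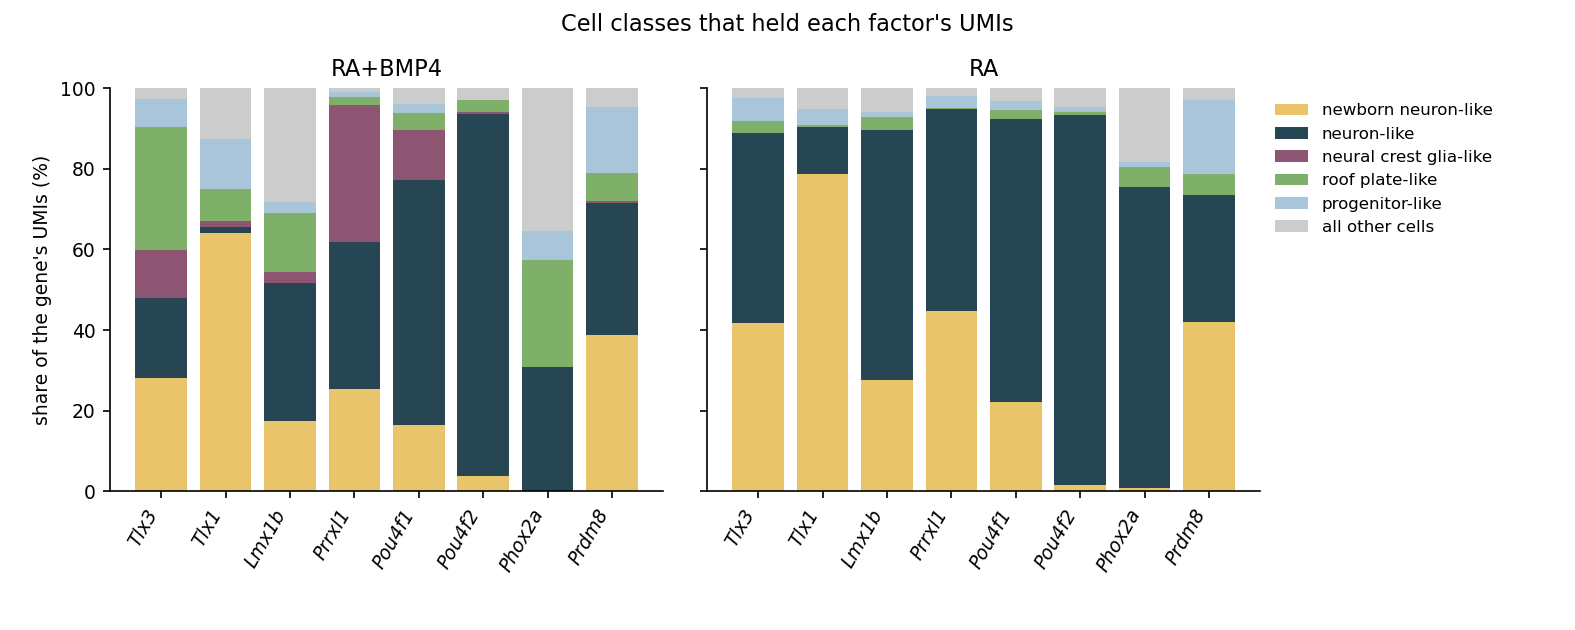
Share of each gene's UMIs found in each class of cells, as stacked bars in percent, for the RA+BMP4 and RA libraries. Pou4f2 was almost confined to neuron-like cells (89.8% and 91.8%), Tlx1 lay mainly in newborn neuron-like cells (64.1% and 78.7%), and roof plate-like cells held 30.6% of Tlx3 UMIs in RA+BMP4 against 2.94% in RA.

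The cells that carried each gene differed by gene and, for Tlx3, Lmx1b, Prrxl1 and Phox2a among others, by library. Of Tlx3 UMIs in RA+BMP4, 30.6% came from roof plate-like cells, 28.2% from newborn neuron-like, 19.9% from neuron-like and 11.8% from neural crest glia-like cells. In RA, 47.1% came from neuron-like and 41.7% from newborn neuron-like cells. Tlx1 lay mainly in newborn neuron-like cells, with 64.1% of its UMIs in RA+BMP4 and 78.7% in RA. Pou4f2 had 89.8% of its UMIs in neuron-like cells in RA+BMP4 and 91.8% in RA, with 24 and 12 UMIs in newborn neuron-like cells. Lmx1b had 34.1% in neuron-like cells in RA+BMP4 and 62.0% in RA, and 23.0% and 1.03% in mesenchyme-like cells. Neuron-like cells held 36.4% and 50.1% of Prrxl1 UMIs, and 30.9% and 74.6% of Phox2a UMIs. For Prdm8, progenitor-like cells held 16.3% in RA+BMP4 and 18.4% in RA.

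In the roof plate-like class, Tlx3 was found in 11.5% of 2611 RA+BMP4 cells and 3.47% of 951 RA cells, against 0.662% of RA+BMP4 and 1.17% of RA mesenchyme-like cells. Of the class's Tlx3 UMIs, cluster 0, with Wnt1 and Rspo3 among its leading genes, held 718 of 909 in RA+BMP4 and 42 of 163 in RA, where cluster 6 held 69. In cluster 0, Tlx3 had 41.6 CPM (38.6 to 44.7) in RA+BMP4 and 19.3 CPM (13.9 to 26.1) in RA. The class as a whole was set by roof plate markers, and its clusters 6 and 9 had no roof plate marker among their 10 leading genes, cluster 6 being led by cell cycle genes such as Cenpf and Mki67. Of the 300 Tlx3-positive roof plate-like cells in RA+BMP4, 214 (71.3%) also held Wnt1, a roof plate signal, against 57.7% of Tlx3-negative ones, and of the 33 in RA, 21 (63.6%) held it, against 34.2%. Prrxl1, Tlx1 and the proneural gene Neurog2 were found in 0 of the 300 cells, which allows a share of up to 1%, and 0 of the 33 (up to 9.09%), and Lmx1b in 1 of the 300 and 0 of the 33. These genes were also rare in the Tlx3-negative roof plate-like cells of RA+BMP4, at 0.0433% (Tlx1) to 0.736% (Neurog2). Pou4f1 was found in 12 of the 300 (4%), against 2.38% of Tlx3-negative ones, and in 1 of the 33. Prdm8 was found in 5 of the 300 (1.67%), against 0.736%, and in 0 of the 33.

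Among neuron-like and newborn neuron-like cells, clusters 1 and 3 held most of the Lmx1b-positive cells in both libraries. They held most of the Tlx3-positive cells in RA only. Cluster 1 (135 cells in RA+BMP4 and 950 in RA) was led by Cntnap5a, Fstl5, Lrrn3 and Reln, held all 10 neuron markers and was given no class name beyond neuron-like. Cluster 3 (402 and 519 cells) was newborn neuron-like, led by Neurod4, Neurog2 and Nhlh1. Of Tlx3-positive cells of the lineage, 23.3% lay in cluster 1 and 21.7% in cluster 3 in RA+BMP4, and 56.3% and 24.0% in RA. Of Lmx1b-positive cells, 57.7% and 36.5% lay there in RA+BMP4, and 65.3% and 29.7% in RA. The largest share of Tlx3-positive cells in RA+BMP4, 25.6%, lay in cluster 16, and that of Pou4f1-positive cells, 40.6%, in cluster 7.

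Within cluster 1 the libraries were close for several of these genes. Tlx3 had 232 CPM (207 to 260) in RA+BMP4 and 194 CPM (186 to 202) in RA. Lmx1b had 59.8 CPM (47.2 to 74.8) in RA+BMP4 and 58.9 CPM in RA, and Pou4f2 had 65.3 CPM (52.1 to 80.8) in RA+BMP4 and 51.9 CPM in RA. The lower levels in RA+BMP4 over all neuron-like cells were thus not seen for Tlx3 and Lmx1b among cells of this cluster. Pou4f1 had 240 CPM in RA+BMP4 and 320 CPM in RA, and Prrxl1 had 24.1 CPM (16.4 to 34.2) and 43.3 CPM. Prdm8 had 19.4 CPM (12.6 to 28.7) in RA+BMP4 and 9.26 CPM (7.60 to 11.2) in RA. RA+BMP4 over RA, the ratio was 1.20 (1.06 to 1.35) for Tlx3, 1.26 (0.989 to 1.58) for Pou4f2 and 2.10 (1.30 to 3.26) for Prdm8. The partners differed within the same cluster: Isl1 had 110 CPM in RA+BMP4 and 9.00 CPM in RA, Lbx1 had 21.8 and 69.5 CPM, and Slc17a6 had 90.1 and 127 CPM.

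In cluster 3, the gaps were wider. Tlx3 had 109 CPM (99.8 to 120) in RA+BMP4 and 267 CPM (255 to 280) in RA, and Tlx1 had 7.03 CPM (30 UMIs) in RA+BMP4 and 63.1 CPM (425 UMIs) in RA. Lmx1b had 9.38 CPM in RA+BMP4 and 44.5 CPM in RA, and Prrxl1 had 15.2 and 73.7 CPM. Prdm8 again stood near parity, with 66.8 CPM (59.3 to 75.0) in RA+BMP4 and 57.7 CPM in RA. Whether cluster 3 holds the same mix of future classes in both libraries was not tested.

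Outside these clusters, the Pou4f genes marked the dI2-like cluster 7, led by Foxd3 and Hmx2. Pou4f1 had 204 CPM in RA+BMP4 (621 cells) and 237 CPM in RA (119 cells) there, and Pou4f2 had 68.3 and 42.3 CPM. In RA+BMP4, 74.8% of Pou4f2-positive lineage cells lay in cluster 7 and 15.6% in cluster 1, whereas in RA 10.53% lay in cluster 7 and 81.8% in cluster 1. Pou4f2 thus had nearly the same share of lineage cells in both libraries (6.59% and 6.56%) but from different clusters. Tlx3 was also present in cluster 16, led by Atoh1, the proneural factor of dI1 progenitors, at 96.6 CPM (85.8 to 108) in RA+BMP4 and 64.4 CPM (51.1 to 80.0) in RA, while Prrxl1 and Lmx1b had 1 UMI each there in RA+BMP4 and 3 each in RA. In cluster 15, whose leading genes include Gsx1, Tlx3 had 286 CPM (226 to 356) in the 32 RA+BMP4 cells and 111 CPM (101 to 122) in the 333 RA cells. Clusters 8 and 17 were dI4 or dILA-like, with Pax2 and Gad2 among their leading genes. Of Prdm8-positive lineage cells in RA, 11.7% lay in cluster 8, 10.4% in cluster 17, 14.7% in cluster 1 and 38.1% in cluster 3. In RA+BMP4 these shares were 3.53%, 4.31%, 4.31% and 41.2%.

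**Figure D3:**
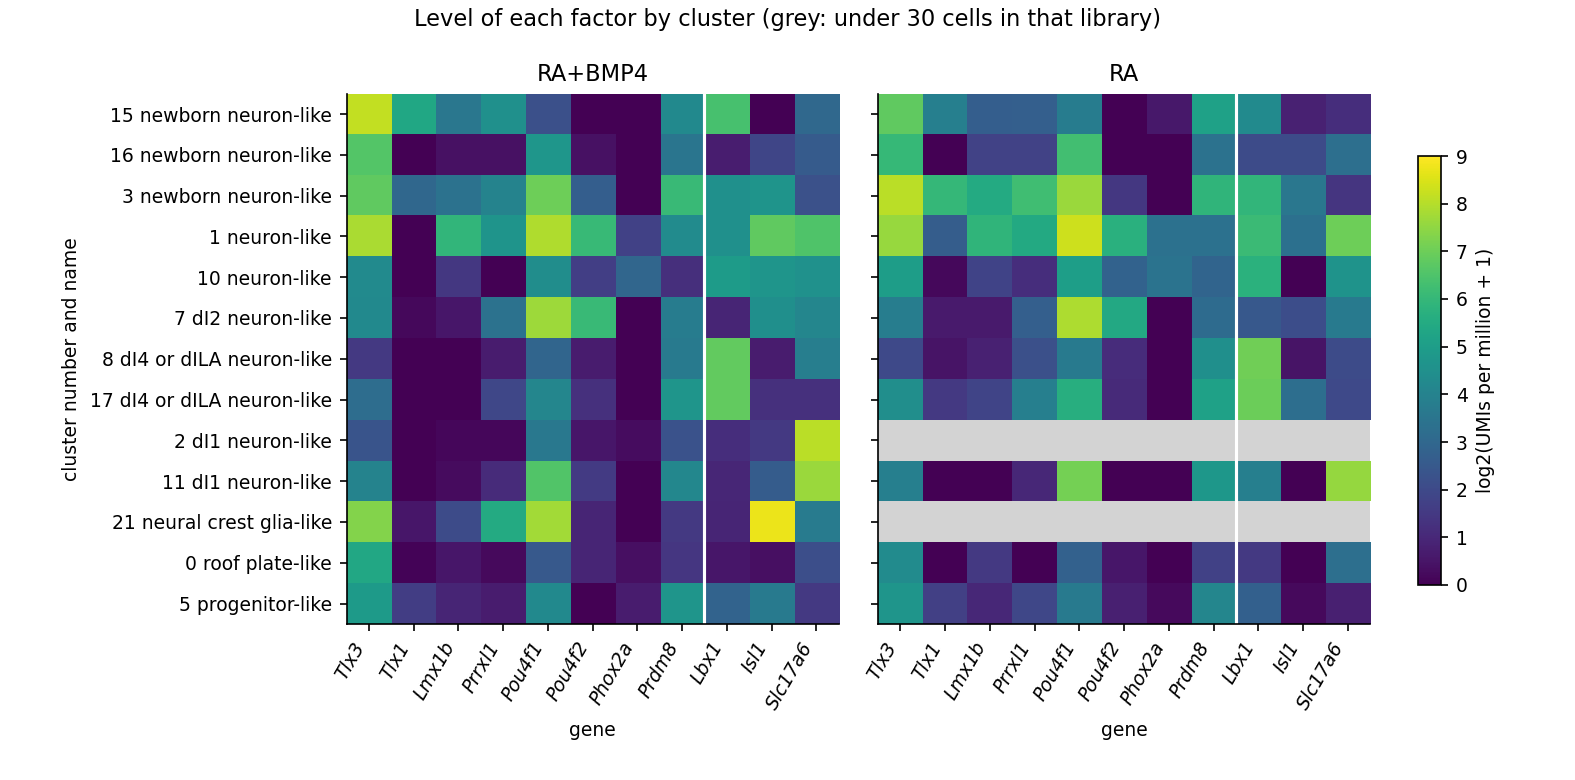
Heat map of log2(CPM + 1) of each gene in each cluster, with clusters of the RA+BMP4 library and the RA library side by side and grey where a library had under 30 cells. Clusters 1 and 3 were high for Tlx3, Lmx1b and Prrxl1, and cluster 7 for Pou4f1 and Pou4f2.

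Cluster 21 was almost confined to RA+BMP4, with 110 cells there and 1 in RA. It was named neural crest glia-like from markers such as Sox10 and Erbb3, which stood among its 10 leading genes beside Isl1, Neurod1 and Tlx2. In its RA+BMP4 cells Tlx3 had 159 CPM (143 to 177), Pou4f1 216 CPM (197 to 236), Prrxl1 43.9 CPM (35.5 to 53.6) and Isl1 426 CPM, while Lbx1 had 2 UMIs, Lmx1b 7 and Tlx1 1. Those 110 cells held 33.9% of all Prrxl1 UMIs of the RA+BMP4 library and 12.4% of Pou4f1 UMIs. All 10 neuron markers were present at 1 CPM or more, summing to 3749 CPM. In RA+BMP4 mesenchyme-like cells all 10 reached 1 CPM as well, with a sum of 318 CPM, against 8868 CPM in neuron-like cells. Of 11 markers of peripheral sensory neurons, 8 reached 1 CPM and their sum was 315 CPM, whereas Avil and Ret were at 0. Over all kept RA+BMP4 cells, 8 also reached 1 CPM, with a sum of 303 CPM. Neither this count nor this sum thus set the cluster apart. The cluster was not counted in the neuron lineage. In RA+BMP4 it was deeper, with a median of 19097.5 UMIs against 9481 in neuron-like and newborn neuron-like cells. It entered no comparison of neurons below, except where it was added as an alternative.

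Cells of the lineage were then ordered by a score, log2 of the summed UMIs of 9 late genes (such as Stmn2, Snap25 and Syt1) minus log2 of those of 9 early genes (such as Neurog2, Neurod4 and Dll1). None of the 8 factors entered it. The 6495 thinned cells of both libraries were divided into 3 equal parts, early, middle and late. The borders lay at 2.91 and 4.39, with 379 and 794 cells within 0.25 of them, so the parts are ranges and not stages.

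In RA, Tlx3 had 190 CPM in the early part, 86.4 CPM in the middle part and 71.3 CPM in the late part. Tlx1 had 35.1, 1.65 and 0.713 CPM, Prrxl1 had 49, 22.2 and 6.78 CPM, Lmx1b had 38.0, 22.6 and 13.8 CPM, and Prdm8 had 40.4, 14.1 and 10.9 CPM. These 5 genes were called lower late, with late over early ratios of 0.0203 (0.00970 to 0.0377) for Tlx1, 0.138 for Prrxl1, 0.270 for Prdm8, 0.365 for Lmx1b and 0.375 for Tlx3. In clusters 1 and 3 alone, the log2 ratio in RA was 0.15 for Lmx1b, which turned its direction, and -0.60 for Tlx3, which was no longer called. Pou4f1 had 138 CPM early, 178 CPM in the middle and 138 CPM late. Pou4f2 ran the other way, with 3.92, 25.3 and 26.4 CPM and a ratio of 6.74 (5.10 to 9.05). Phox2a had 3.04, 1.18 and 8.63 CPM and a ratio of 2.84, but its 45 early UMIs came from few cells and in thinned cells it was found in 1 early cell and 13 late ones. Ordered by the early list alone, its log2 ratio turned to -0.56. Of 10548 genes in RA, 8.69% were called lower late and 12.1% higher.

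In RA+BMP4, 3 of these genes were called lower late and none higher. Tlx3 had 89.4 CPM early, 23.3 CPM in the middle and 18.9 CPM late, a ratio of 0.211 (0.182 to 0.244). Prrxl1 had 10.9, 3.41 and 1.81 CPM and Prdm8 had 34.9, 11 and 8.08 CPM, with ratios of 0.166 and 0.232. Tlx1 had 42 UMIs early and 0 in the middle and late parts, so its late level was at least 16.5-fold lower, taking 3 UMIs in the late part as the floor. Lmx1b had 5.16, 3.05 and 3.05 CPM, Pou4f1 had 105, 92.3 and 65.1 CPM and Pou4f2 had 10.7, 22.2 and 17.7 CPM, none of them called. Of 10705 genes in RA+BMP4, 7.94% were called lower late and 11.2% higher.

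**Figure D4:**
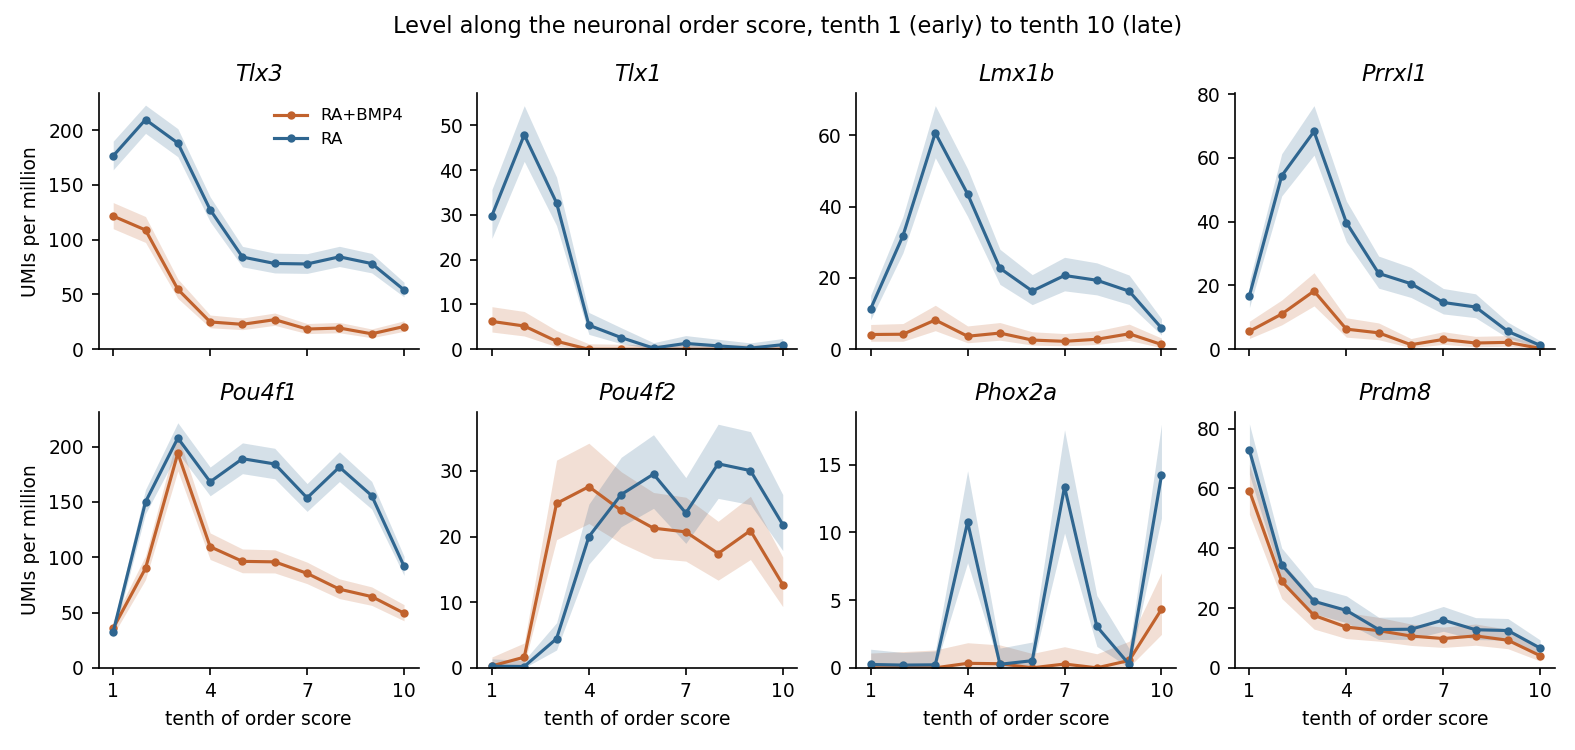
Level of each gene in CPM along 10 equal parts of the early to late score, in neuron-like and newborn neuron-like cells of the RA+BMP4 and RA libraries. Prdm8 and Tlx1 were highest in parts 1 and 2, Lmx1b and Prrxl1 in part 3, and Pou4f2 in part 4 (RA+BMP4) and part 8 (RA).

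A division into 10 equal parts gave a finer order. Prdm8 was highest in part 1 in both libraries (59.3 CPM in RA+BMP4 and 72.8 CPM in RA). Tlx3 and Tlx1 were highest in part 1 in RA+BMP4 and part 2 in RA, with Tlx3 at 121 and 210 CPM. Lmx1b, Prrxl1 and Pou4f1 were highest in part 3 in both libraries, Pou4f1 at 194 and 208 CPM. Pou4f2 was highest in part 4 in RA+BMP4 (27.6 CPM) and part 8 in RA (31.1 CPM), and Phox2a in part 10 in both. Neighbouring parts often had overlapping intervals: Pou4f2 in RA+BMP4 had 25.1 CPM in part 3 and 24.0 CPM in part 5 beside its peak, and Tlx3 in RA had 188 CPM in part 3 beside its peak in part 2.

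The parts also differed in clusters. The early part held 39.1% cluster 3 and 26.8% cluster 16 cells in RA+BMP4, and 41.8% cluster 3 and 27.5% cluster 15 cells in RA. The late part held 43.0% cluster 2 cells, a dI1-like cluster, in RA+BMP4, and 38.4% cluster 1 and 33.9% cluster 10 cells in RA. Along the order over all cells, class thus changed together with maturation. Between cluster 1 and cluster 3 alone, Tlx3 had 232 and 109 CPM in RA+BMP4, a ratio of 2.12 (1.83 to 2.46), and 194 and 267 CPM in RA, a ratio of 0.725, so the Tlx3 ratio in RA+BMP4 lay on the other side of 1 from the all-cell one. With only these clusters ordered, the late over early difference of Tlx3 in RA+BMP4 was 0.91 on the log2 scale.

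Pou4f2, Prdm8 and Tlx1 lay on the same side of 1 between these clusters as between the late and early parts. Pou4f2 was higher in cluster 1 in both libraries, 12.1-fold (7.56 to 20.1) in RA+BMP4 and 29.1-fold (16.6 to 56.7) in RA. Prdm8 was lower in cluster 1, with ratios of 0.291 in RA+BMP4 and 0.160 in RA. Tlx1 had 0 UMIs in cluster 1 and 30 in cluster 3 in RA+BMP4, at least 3.02-fold lower, and a ratio of 0.0835 in RA. Lmx1b lay on the other side, 6.38-fold higher in cluster 1 in RA+BMP4 and 1.32-fold in RA, and in RA+BMP4 so did Prrxl1 (1.58-fold, 0.996 to 2.46) and Pou4f1 (1.88-fold, 1.63 to 2.17). Phox2a in RA had 110 UMIs in cluster 1 and 0 in cluster 3, at least 21-fold higher. Of all genes tested, 14.5% were called higher in cluster 1 and 10.3% lower in RA+BMP4, and 13% and 8.28% in RA.

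Co-detection was counted in the same thinned cells. Lbx1 was found in 192 of 3310 RA+BMP4 cells and 776 of 3185 RA cells, Isl1 in 90 and 37, and Slc17a6 in 958 and 494. In mesenchyme-like cells these partners were found in 0.992% (Lbx1), 0.551% (Isl1) and 0.551% (Slc17a6) of RA+BMP4 cells and 1.88%, 0.235% and 0.235% of RA cells. A gene found in at least 1% of the cells was called when its share differed at least 2-fold between partner-positive and partner-negative cells. At 5000 UMIs a gene that is present is often missed, and free RNA can add cells, so the shares count cells with UMIs of both genes and not cells that express both.

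With Lbx1, the factor of dI4 to dI6 neurons, Lmx1b stood out in RA+BMP4. Lmx1b was found in 18 of 192 Lbx1-positive cells (9.38%, 5.65 to 14.4) and in 1.09% of Lbx1-negative cells, a ratio of 8.60. Pou4f2 went the other way, found in 2.60% of Lbx1-positive and 6.83% of Lbx1-negative cells, a call on 5 positive cells that was not made with at least 2 UMIs or in clusters 1 and 3 alone. Tlx3 was found in 16.1% of Lbx1-positive and 9.04% of Lbx1-negative cells and was not called. In RA no factor was called with Lbx1: Tlx3 was found in 27.4% (24.3 to 30.7) of Lbx1-positive and 24.99% (23.3 to 26.8) of Lbx1-negative cells, and Lmx1b in 13.3% and 9.01%. Of all genes tested, 2.31% were called higher and 2.61% lower with Lbx1 in RA+BMP4, and 0.266% and 2.22% in RA.

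With Isl1, the factor of dI3 and sensory neurons, Tlx3 was found in 43 of 90 positive cells in RA+BMP4 (47.8%, 37.1 to 58.6) and in 8.39% of negative ones, a ratio of 5.70. Prrxl1 was found in 11.1% of Isl1-positive and 1.77% of Isl1-negative cells, Pou4f1 in 55.6% and 24.1%, and Pou4f2 in 15.6% and 6.34%, all called higher. In clusters 1 and 3 alone, Prrxl1 and Pou4f1 were no longer called, with log2 ratios of 0.39 and 0.58, and with neurons gated per cell Pou4f2 was not, at 0.70. Lmx1b was found in 0 of the 90 Isl1-positive cells, which allows a share of up to 3.33%, and in 1.61% of the negative ones. In RA, 37 cells were Isl1-positive, of which 18 held Tlx3 (48.6%, 31.9 to 65.6) against 25.3% of the negative ones, and Pou4f1 was called higher, at 67.6% and 33.1%, a ratio of 2.04. That call was lost with neurons gated per cell and with doublets kept, at a log2 ratio of 0.98 in each, and in clusters 1 and 3 alone, at 0.34. The background with Isl1 was 2.69% of genes higher and 2.73% lower in RA+BMP4, and 2.98% and 1.93% in RA.

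The Tlx3-positive cells divided accordingly, though most held neither partner. Of 313 such cells in RA+BMP4, 9.90% held Lbx1 without Isl1, 13.7% held Isl1 without Lbx1, none held both (which allows up to 0.958%) and 76.4% held neither. Of 815 in RA, 26.0% held Lbx1 without Isl1, 2.09% held Isl1 without Lbx1, 1 cell held both and 71.8% held neither. Over all lineage cells, Lbx1 was found in 5.80% in RA+BMP4 and 24.4% in RA, and Isl1 in 2.72% and 1.16%, so in RA the share of Tlx3-positive cells with Lbx1 was near that of all lineage cells.

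With Slc17a6, Tlx3, Pou4f1 and Pou4f2 lay on opposite sides of parity in the 2 libraries, while Prdm8 was lower in both. In RA+BMP4, Tlx3 was found in 4.70% (3.45 to 6.24) of Slc17a6-positive and 11.4% (10.1 to 12.7) of Slc17a6-negative cells, a ratio of 0.412. Prrxl1 (0.626% and 2.59%), Pou4f2 (2.82% and 8.12%) and Prdm8 (3.97% and 9.23%) were likewise called lower, and Pou4f1 was found in 15.9% and 28.7%. In RA, Pou4f1 was found in 62.8% (58.3 to 67.0) of Slc17a6-positive and 28.1% (26.4 to 29.9) of Slc17a6-negative cells, and Pou4f2 in 16.6% and 4.72%, both called higher. In clusters 1 and 3 alone the Pou4f1 call was lost, at a log2 ratio of 0.38. Tlx3 in RA was found in 41.1% and 22.7%, a ratio of 1.81, and Lmx1b in 16.4% and 8.88%. Tlx1 (2.43% and 5.13%) and Prdm8 (3.24% and 10.8%), the genes of the earliest cells, were called lower in RA. The background with Slc17a6 was 2.07% of genes higher and 4.1% lower in RA+BMP4, and 1.36% and 5.46% in RA.

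The Slc17a6-positive cells belonged to different clusters in each library. In RA+BMP4, 843 of the 958 lay in the dI1-like clusters 2 and 11 and 34 (3.55%) in cluster 1, and in RA 52 of the 494 lay in the dI1-like clusters and 390 (78.9%) in cluster 1. Within cluster 1, Tlx3 was found in 61.8% (43.6 to 77.8) of 34 Slc17a6-positive and 53.6% (43.2 to 63.8) of 97 Slc17a6-negative cells in RA+BMP4, and in 48.2% of 390 and 49.1% of 552 cells in RA. The intervals overlapped in both libraries, and the contrast seen over the whole lineage did not appear in this cluster. In clusters 1 and 3 combined, the RA+BMP4 ratios of Tlx3, Prrxl1 and Pou4f2 lay above 1. There, 34 Slc17a6-positive cells lay in cluster 1 and 9 in the larger cluster 3. These ratios thus cannot be told apart from the difference between the clusters.

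**Figure D5:**
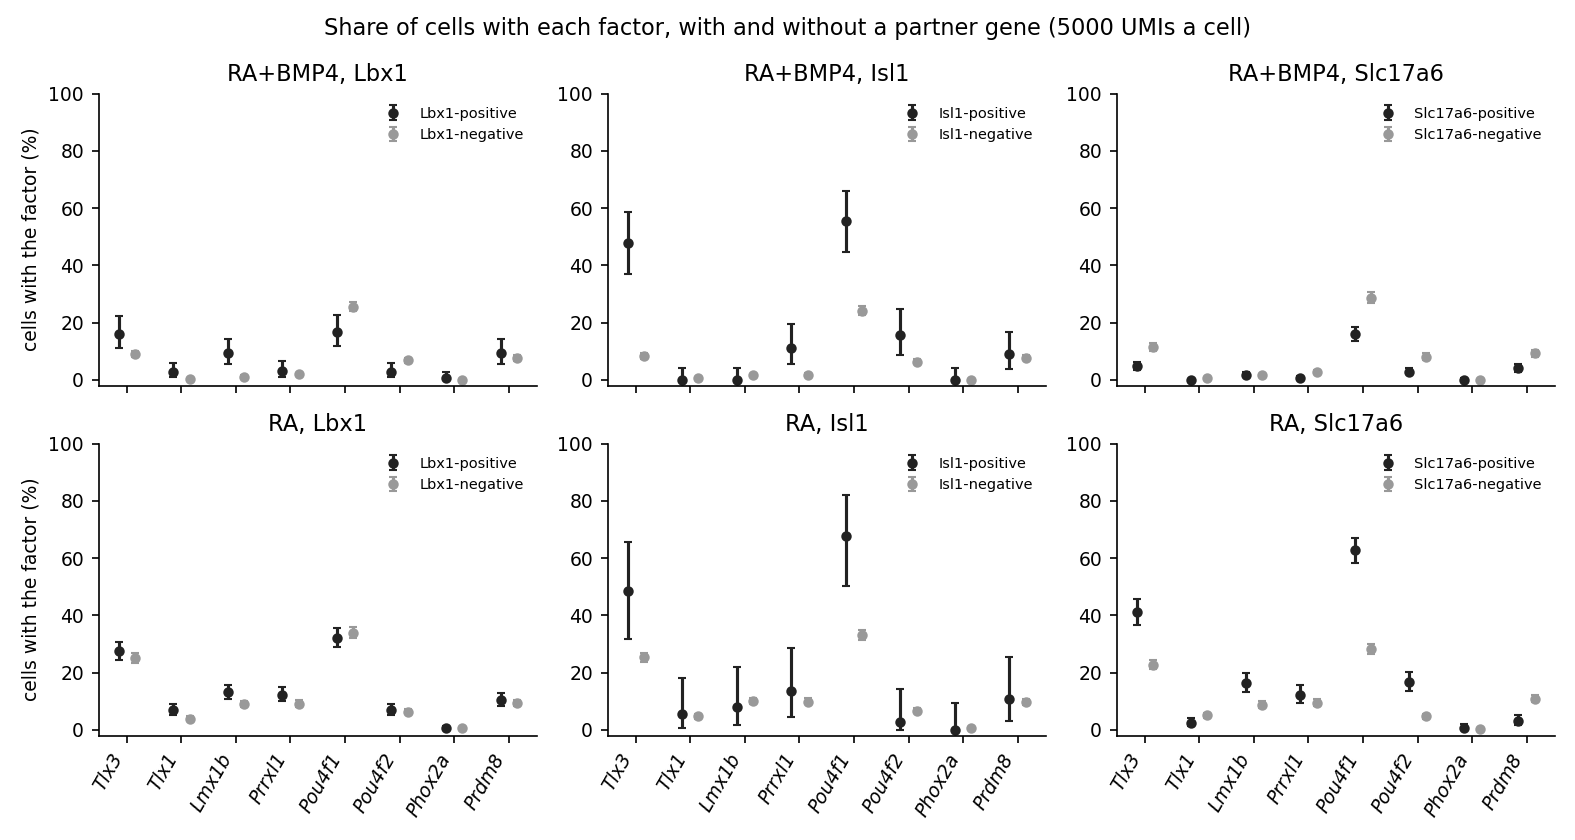
Share of cells, in percent, in which each factor was found, in partner-positive and partner-negative neuron-like and newborn neuron-like cells, for the partners Lbx1, Isl1 and Slc17a6 in the RA+BMP4 and RA libraries. Tlx3 stood at 47.8% against 8.39% with Isl1 in RA+BMP4, and at 41.1% against 22.7% with Slc17a6 in RA.

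The factors were also found with each other. Tlx1-positive cells were nearly a subset of Tlx3-positive ones: Tlx3 was found in 13 of 15 in RA+BMP4 and 130 of 150 in RA (86.7% each), against 9.10% and 22.6% of Tlx1-negative cells. Lmx1b-positive cells held Tlx3 in 69.2% of 52 cells in RA+BMP4 and 63.4% of 320 in RA, against 8.50% and 21.4% of Lmx1b-negative cells. Prrxl1-positive cells held Tlx3 in 44.8% and 58.7%, and Lmx1b in 16.4% and 38.5%. Pou4f2-positive cells held Pou4f1 in 59.2% of 218 cells in RA+BMP4 and 68.4% of 209 in RA, against 22.5% and 31.0% of Pou4f2-negative cells. Tlx1 and Pou4f2 were found together in no lineage cell of either library. In RA, Pou4f2 was in 0 of 150 Tlx1-positive cells, which allows a share of up to 2%, and in 6.89% of Tlx1-negative ones. In RA+BMP4 it was in 0 of 15 Tlx1-positive cells, which allows up to 20% and so shows little.

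No member was found in 61.9% of lineage cells in RA+BMP4 and 46% in RA, and a single member in 27.0% and 26.7%. Between them, 2 members were found together in 8.28% and 14.7%, 3 in 1.87% and 7.22%, and 4 in 0.755% and 4.21%. No cell held more than 5 of the 8 in RA+BMP4 and no cell more than 6 in RA.

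Tlx3 and Pax2, the factors of the opposite transmitter fates, were nearly exclusive. In RA+BMP4, 311 cells held Tlx3 without Pax2, 238 held Pax2 without Tlx3 and 2 held both, and in RA these numbers were 790, 624 and 25. Lbx1 was found in 9.97% of the cells with Tlx3 alone and 38.7% of those with Pax2 alone in RA+BMP4, and in 26.2% and 40.5% in RA. Gad2, an enzyme of GABA synthesis, was found in 0.322% of the cells with Tlx3 alone and 56.7% of those with Pax2 alone in RA+BMP4, and in 1.52% and 53.7% in RA. Lmx1b was found in 11.6% and in 0 of 238 cells (which allows up to 1.26%) in RA+BMP4, and in 25.4% and 0.321% in RA. Pou4f1 followed Tlx3 as well, at 41.2% and 8.82% in RA+BMP4 and 60.5% and 5.77% in RA.

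A list of 37 other genes of the dorsal excitatory programme and its inhibitory counterpart was set beside Tlx3. In RA+BMP4, 2 of 20 genes tested were called higher in Tlx3-positive cells, among them Ebf2 (41.9% and 20.2%), and 5 lower. In RA, 0 of 21 were called higher and 8 lower. The median log2 ratio of the list was -0.41 in RA+BMP4 and -0.09 in RA, against -0.04 and -0.02 over all genes tested, of which 2.06% were called higher and 4.29% lower in RA+BMP4 and 0.447% and 3.36% in RA. Pax2, Prdm13, Gad1, Gad2 and Slc32a1, all of the inhibitory class, were the 5 lower genes in RA+BMP4 and among the 8 in RA, where Sst, Cartpt and Mafa were the others. Slc17a6 itself was found in 14.4% of Tlx3-positive and 30.5% of Tlx3-negative cells in RA+BMP4, and in 24.9% and 12.3% in RA.

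Between libraries, the same list had 11 of 20 tested genes called lower and 2 higher in RA+BMP4 neuron-like cells, with a median log2 ratio of -1.15 against 0.07 over all genes. The lower ones held inhibitory genes, such as Pax2 (37.0 CPM in RA+BMP4 and 130 CPM in RA) and Gad2 (24.9 and 69.03 CPM), and neuropeptide genes, such as Tac1, which encodes substance P (2.18 and 8.51 CPM), and Sst, which encodes somatostatin (271 and 749 CPM). Penk (6.16 and 1.61 CPM) and Maf (119 and 44.8 CPM) were the 2 higher ones. Of 12 genes that mark the birth date of neurons, 11 were tested, 1 was lower (Onecut1, 2.07 and 6.32 CPM), none was higher and the median log2 ratio was -0.21. Of the same 12 genes, Pou2f2 had 236 CPM in RA+BMP4 and 315 CPM in RA, and Zfhx3 had 1484 and 1362 CPM.

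Across 41 cluster by library profiles of at least 50 cells, the profiles nearest to each factor by Pearson's r of log2(CPM + 5) were named as a description. The 10039 candidates left out the 8 factors, mitochondrial genes and gene models without a name, and some factors were nearer to each other than to any candidate. The profiles come from 2 libraries and share their depth and cell makeup. For Tlx3 these were Mfng, Btbd17 and Hes6 (r of 0.72, 0.72 and 0.71), and for Tlx1 Polr2k, Rhbdd1 and Neurod4 (0.63, 0.62 and 0.60). Lmx1b was nearest to Tac1 (0.71), Syt13 (0.60) and Arg1 (0.60), and Prrxl1 to Thsd7b (0.71), Pex5l (0.69) and Npr2 (0.68). Pou4f1 was nearest to Tbc1d9 (0.83), Ebf1 (0.80) and Ppp1r17 (0.79), and Pou4f2 to Rapgef4 (0.79), Dcbld2 (0.74) and Chst8 (0.72). Phox2a was nearest to Hs3st2 (0.84), Tox2 (0.73) and Adap1 (0.71), and Prdm8 to Spire1 (0.82), Igsf8 (0.82) and Phf21b (0.78). Among the factors, r was 0.79 between Lmx1b and Prrxl1, 0.77 between Prrxl1 and Pou4f1, 0.75 between Tlx3 and Prrxl1, 0.66 between Tlx1 and Prrxl1, 0.69 between Pou4f1 and Pou4f2, 0.58 between Tlx3 and Tlx1 and 0.16 between Tlx1 and Pou4f2.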

How the data were processed

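Cold trypsin freed the cells, a kit removed dead ones and 10x Chromium droplets captured the rest, per the labels' protocols. What the authors deposited are raw UMI counts for each gene in each barcode. Software listed in the submitters' processing notes comprises CASAVA and Cell Ranger 3.0.2, with GRCm38 as the build. For the annotation release and strand setting, nothing is given in the sources used here. Gene positions came from GENCODE vM21 by gene ID, and promoters from RefSeq by symbol.

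The 8 genes, the gene lists and the cell type markers were chosen with earlier results of these data known. Barcodes under 1000 detected genes, or with more than 10% of UMIs from mitochondrial genes, were dropped. Scrublet, with an expected rate of 8%, called 313 (3.62%) of the passing RA+BMP4 cells and 142 (2.35%) of the RA cells as doublets, which were removed. Cells were clustered by Leiden (leidenalg 0.10.2, scanpy 1.11.5) at resolution 1 on 3000 variable genes, 30 components and 20 neighbours, without integration. All 178 listed genes, the 8 factors and partners included, were left out of clustering. Clusters were named from markers, and class names are rebuilt here. For shares, cells were thinned to 5000 UMIs, which left out 571 RA+BMP4 and 187 RA cells.

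Levels have exact Poisson intervals, ratios of levels exact conditional binomial intervals and shares Clopper-Pearson intervals, all at 95% (scipy 1.17.1). Bounds for a level or share of 0 take 3 UMIs or 3 cells in its place. With 1 library per condition, no p-value was computed. The scripts were tested on simulated data with known answers. Named genes were the 8 factors, the 3 partners, the lists, the 3 nearest profiles per factor and the leading genes of clusters. Alternatives were other cell filters, scaling (TMM of edgeR 4.0.16 and median-of-ratios), thinning, resolutions, gates, order scores, doublets kept and subsets of clusters. Values of some genes are not reported here.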

Additional observations from a re-analysis of the deposited data

Results flagged for a closer look

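For 3 genes, the share found in Slc17a6-positive over Slc17a6-negative cells lay on opposite sides of 1 in the libraries, and this difference was not tested, since each condition had 1 library. For Tlx3 the ratio was 0.412 in RA+BMP4 and 1.81 in RA. For Pou4f1 it was 0.554 in RA+BMP4 and 2.23 in RA. For Pou4f2 it was 0.347 in RA+BMP4 and 3.52 in RA. The clusters that held Slc17a6 differed with them: 843 of 958 Slc17a6-positive lineage cells in RA+BMP4 and 52 of 494 in RA lay in dI1-like clusters.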

How the results depend on the processing

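Each condition had 1 library, so leaving out a replicate was not possible. No paired analysis was possible because each condition had 1 library and no result comes from a test. Of counts of calls, 136 stayed within 1.5 times the reported count and 30 did not. Of values for single genes, 303 stayed within their interval, 107 moved outside it and 6 that had been called changed direction. For values not called, a change of direction was not counted apart, so the number of all such changes is not given. Where a value moved, the cause was not tested. Orders and co-detection in clusters 1 and 3 alone, co-detection with the neural crest glia-like cluster added, levels without that cluster and the unnamed ones, and values without barcodes shared by both libraries were added after the data had been seen.

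Over whole libraries, genes called higher numbered 272 with the stricter cell filter and 59 at 20 CPM (165 reported), and genes called lower numbered 43 at 20 CPM and 80 without pluripotent-like cells (157 reported). Of the 8 factors, 5 were called lower with each cell weighted equally and 0 at 20 CPM (3 reported), and 7 by shares of cells with at least 2 UMIs. In neuron-like cells, 142 genes were called lower with the stricter filter (94 reported).

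Late over early, ordering by the late list alone gave 1 factor called higher in RA+BMP4 (0 reported). By the early list alone, RA had 1 factor called higher (2 reported), 761 genes higher and 576 lower, and Phox2a turned to a log2 ratio of -0.56. In clusters 1 and 3 alone, 3 factors and 1797 genes were called higher in RA+BMP4, with Tlx3 at 0.91 on the log2 scale, and 3 factors lower in RA, with Lmx1b at 0.15.

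With Lbx1 in RA+BMP4, 2 factors were called higher and 0 lower, both with at least 2 UMIs and in clusters 1 and 3 (1 and 1 reported), and in RA 1 was higher with at least 2 UMIs. With Isl1 in RA, where 1 was reported higher, 3 were with at least 2 UMIs, and 0 with a gate per cell, with doublets kept and in clusters 1 and 3, where 1 was lower. With Isl1 in RA+BMP4, clusters 1 and 3 gave 2 higher and 1 lower (4 and 0 reported). With Slc17a6, these clusters gave 4 higher and 1 lower in RA+BMP4 (0 and 4 reported), with log2 ratios of 1.20 for Tlx3, 1.07 for Prrxl1 and 1.52 for Pou4f2, and 1 higher in RA (2 reported). Of the Slc17a6-positive cells of these clusters in RA+BMP4, 34 lay in cluster 1 and 9 in cluster 3, so the ratios also compare the clusters. Depth limits all shares, since at 5000 UMIs a gene of low level is missed in most cells.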
